A study of Mus musculus with 12 samples.

Results

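Glypicans and syndecans are the core proteins that carry heparan sulfate chains on the surface of animal cells. The 10 genes described here are the 6 glypican genes, Gpc1 to Gpc6, and the 4 syndecan genes, Sdc1 to Sdc4. They were taken by name from a deposited expression table of 54532 genes, and all 10 were in it once. The table covers mouse limb buds at stage E12.5 of embryonic life, in 12 libraries that form 4 groups of 3 biological replicates. The cKO polysome and cKO input libraries came from limb buds with Mettl14 flox/flox, labelled as Mettl14 knockout. The cHet polysome and cHet input libraries came from limb buds with Mettl14 wt/flox, labelled as heterozygous controls, so at least 1 floxed allele was present in every group. The driver of the deletion and the number of embryos behind a replicate are not given in the sources used here. Mettl14 encodes a subunit of the enzyme that places N6-methyladenosine on RNA. Input is RNA of the cytoplasmic fraction, and polysome is the RNA of that fraction recovered with translating ribosomes after a sucrose gradient. Levels are given as FPKM, fragments scaled to the length of the gene model and to the depth of the library. Levels of different genes can be set side by side per length only roughly, because the gene model can be longer than the transcript. It measures 6425 bases against a transcript of 3488 for Gpc6, 4453 against 1719 for Gpc5 and 4274 against 2586 for Gpc2. For Gpc4 both measure 2651 bases.

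Glypicans are held in the membrane by a lipid anchor and syndecans by a membrane-spanning segment with a short cytoplasmic tail. Their sulfated chains bind FGF, BMP, Hedgehog and WNT ligands and set how far these spread and how they meet their receptors. In limb buds these ligands pattern the skeleton, and loss of GPC3 in people causes an overgrowth syndrome with skeletal defects while loss of GPC6 causes short limbs.

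Gpc3, Gpc4 and Gpc6 were lower on polysomes than in input in both genotypes. Sdc1 was lower and Sdc4 higher on cHet polysomes. Their cKO differences had the same direction and did not pass, but came to pass under some alternative settings. Gpc1, Sdc2 and Sdc3 passed in neither genotype, although Gpc1 was called lower on cHet polysomes under quantile normalization. For no member did the fraction difference itself pass a test for a difference between genotypes. No member passed between genotypes with all libraries in the fit. Gpc3, the most abundant member, was higher on every cKO polysome library than on every cHet polysome library, and 1 of these, cKO polysome replicate 1, stood far above the others.

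The libraries held 10349912 to 30068823 assigned reads, and the 10 members together took 0.0879% to 0.250% of them. On a first principal component over 13610 genes, which held 51.9% of the variance, the polysome libraries lay between −53.8 and −35.5 except cKO polysome replicate 1 at −3.97, and the input libraries between 36.2 and 41.5. On the second component, with 17.1% of the variance, cKO input replicate 3 lay at 63.0 and the other input libraries between −22.5 and −0.49. The main results that rest on these 2 libraries are given with and without them. Mitochondrial RNA made up 0.344% of the reads of cKO polysome replicate 1, 0.502% to 1.13% in the other polysome libraries and 2.30% to 4.85% in input. Mettl14 itself averaged 2.94 ± 0.30 FPKM on cKO and 2.97 ± 0.126 on cHet polysomes, and 2.39 ± 1.04 in cKO and 4.05 ± 0.0313 in cHet input (SD, n = 3 each). The limb tissue label was checked with 9 markers of limb mesenchyme, such as Prrx1 and Hoxd13, all of which reached 1 FPKM in every library.

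Because the fractions differ in what ribosomes carry, the sequence around the start codon is shown for the 5 members that passed the test between fractions and for Gpc1, which did not without quantile normalization. Each line gives the 12 bases before the start codon, the start codon in capitals and the 9 bases after it, read from GENCODE M21 transcripts on mm10.
Gpc3: ccaagaagcaggATGgccgggacc
Gpc4: agggtccgcaccATGgcacgctta
Gpc6: gcatgttgcaccATGccttcttgg
Sdc1: ggtctgggcagcATGagacgcgcg
Sdc4: gctgttgaagccATGgcgcctgcc
Gpc1: tcgggccccgccATGgaactccgg

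The start codons lie at chrX:52613802-52613804 (minus strand) for Gpc3, chrX:52164773-52164775 (minus strand) for Gpc4 and chr14:116925936-116925938 (plus strand) for Gpc6. Those of the others are at chr12:8771636-8771638 (plus strand) for Sdc1, chr2:164443162-164443164 (minus strand) for Sdc4 and chr1:92831932-92831934 (plus strand) for Gpc1. All 6 windows have A or G at the third base before the start codon, which 86.6% of 11677 transcripts of tested genes have. Gpc3, Gpc4, Sdc4 and Gpc1 also have G right after it, as do 53.0% of those transcripts, and Gpc6 and Sdc1 do not. Among the members that fell on polysomes, Gpc3 and Gpc4 have both features and Gpc6 and Sdc1 have the first.

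The pentamer GGACT, a common form of the sequence in which m6A is placed, was searched on the transcript strand because the deleted gene belongs to the m6A writer. It occurred 4 times in the Gpc3 transcript, each time in the coding part, shown with 10 bases on each side and the pentamer in capitals.
Gpc3 site at chrX:52613662-52613666: actgcagcccGGACTcaaatgggtt
Gpc3 site at chrX:52428718-52428722: agtttagtaaGGACTgtggccgtat
Gpc3 site at chrX:52428669-52428673: ttactgccagGGACTgatgatggtt
Gpc3 site at chrX:52314932-52314936: ggatgaagaaGGACTtgaaagtgga

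In Sdc1 the pentamer also occurred 4 times, each time after the stop codon, and in Gpc4 once, in the coding part. It occurred 8 times in Gpc2, 6 times each in Gpc1 and Sdc3, 3 times in Gpc6, 2 times in Sdc4 and 1 time each in Gpc5 and Sdc2. The median over 11874 transcripts of tested genes was 3, with quartiles of 2 and 5. The Gpc5 transcript has no bases before the start codon or after the stop codon, so its count covers the coding part only. Per kb, Gpc2 (3.09) and Gpc3 (1.81) lay above the upper quartile of 1.53. Gpc4 (0.38), Gpc5 (0.58) and Sdc2 (0.28) lay below the lower quartile of 0.64, and the other members lay between. At least 1 GGACT was present in 91.8% of 11874 transcripts of tested genes, and 61.1% had 1 after the stop codon. These matches are letters in a transcript, not measured m6A. The annotated coding parts of the 6 glypicans are alike in length, from 1668 to 1740 bases, while those of the syndecans measure 936 bases in Sdc1, 609 in Sdc2, 1329 in Sdc3 and 597 in Sdc4. Gpc1 shares its coding length with Gpc4, 1674 bases each. Gpc3 and Gpc4 are neighbours on the X chromosome, on the same strand, 107173 bases apart with no other gene of the table between them. Gpc5 and Gpc6 are neighbours on chromosome 14, on the same strand, 400135 bases apart with 1 gene between them.

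**Figure D1:**
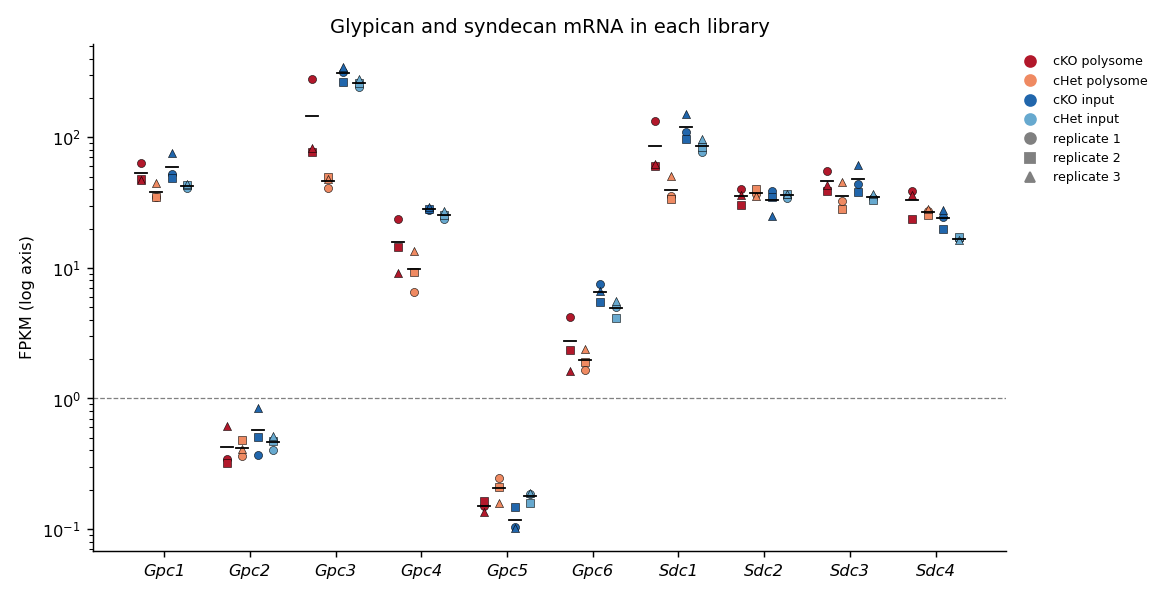
FPKM on a log axis for the 10 genes in each of the 12 libraries, coloured by group and shaped by replicate number, with black bars at group means and a dashed line at 1 FPKM. Gpc3 in cKO polysome replicate 1 lies at 278 FPKM, far above the other polysome libraries, and Gpc2 and Gpc5 stay under 1 FPKM in every library.

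Levels ran from under 1 to 345 FPKM. In input, Gpc3 and Sdc1 led the order in both genotypes, ahead of Gpc1, and their ranges did not overlap those of the next gene. Gpc3 averaged 308 ± 39.5 FPKM in cKO input and 259 ± 18.2 in cHet input (SD, n = 3 each). It made up 76.5% ± 1.34 of the summed glypican FPKM in cKO input and 77.8% ± 0.296 in cHet input. Sdc1, the main syndecan of epithelia that condensing mesenchyme also uses for a time, made up 52.9% ± 3.67 of the syndecan sum in cKO input and 49.6% ± 2.06 in cHet input. On polysomes the Gpc3 share of the glypican sum was 62.7% ± 11 in cKO and 47.8% ± 3.71 in cHet. There Gpc3, Sdc1, Gpc1, Sdc2, Sdc3 and Sdc4 formed a run in which the ranges of neighbours overlapped in both genotypes, and Gpc4 and Gpc6 lay below it. Gpc2 (cerebroglycan, a glypican of developing neurons) lay between 0.323 and 0.838 FPKM over all libraries, from 22 to 63 reads. Gpc5 lay between 0.102 and 0.247 FPKM, from 8 to 26 reads. These 2 genes did not reach 1 FPKM in any library and were not tested, while the other 8 members exceeded 1 FPKM in all 12 libraries and were tested in every comparison.

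**Figure D2:**
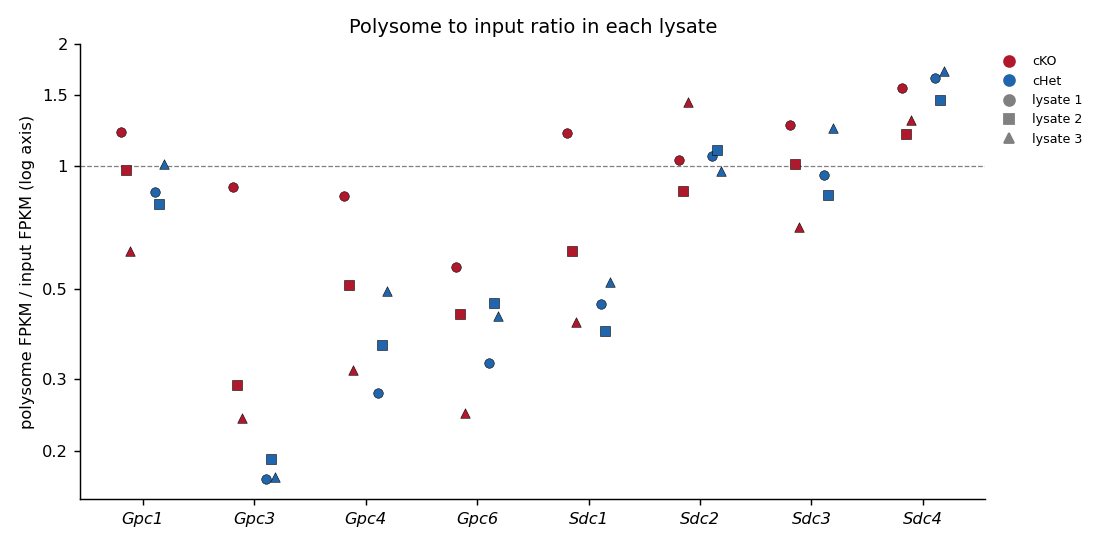
Polysome FPKM over input FPKM of the same lysate, on a log axis, for the 8 tested members, in 3 cKO and 3 cHet lysates. For Gpc3 the cHet lysates lie at 0.171 to 0.191, cKO lysates 2 and 3 at 0.290 and 0.240, and cKO lysate 1 at 0.888.

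The fraction comparison asked how the level of each mRNA within polysome RNA compared with its level within input RNA. FPKM is scaled to the depth of each library, so a ratio does not give the part of an mRNA that is on polysomes. Among glypicans, Gpc3 (ENSMUSG00000055653; mm10 chromosome X, 52272426 to 52613950, minus strand, 8 exons), which binds Hedgehog and WNT ligands, showed the largest difference of any member. It had 278, 77.2 and 82.8 FPKM in cKO polysome replicates 1 to 3, against 313, 266 and 345 FPKM in cKO input. On cHet polysomes it had 41.0, 49.2 and 47.7 FPKM, against 240, 258 and 277 FPKM in cHet input. Every cHet polysome library was below every cHet input library, and in cKO the groups overlapped through polysome replicate 1. Gpc3 fell by 1.34 on the log2 scale on cKO polysomes (SE 0.37, limma adjusted p = 0.0165) and by 2.49 on cHet polysomes (SE 0.37, limma adjusted p = 2.97e-04). Among the 13610 genes tested, the cHet difference ranked 47 from the lowest.

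Gpc4 (ENSMUSG00000031119; chromosome X, 52053021 to 52165252, minus strand, 9 exons), a glypican that binds WNT and FGF ligands, had 23.5, 14.4 and 9.20 FPKM on cKO polysomes, against 27.8, 28.2 and 29.2 FPKM in cKO input. It had 6.53, 9.30 and 13.4 FPKM on cHet polysomes, against 23.5, 25.6 and 27.2 FPKM in cHet input. The fractions did not overlap in either genotype. Gpc4 fell by 0.95 in cKO (SE 0.30, limma adjusted p = 0.0294) and by 1.43 in cHet (SE 0.30, limma adjusted p = 0.00200).

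Gpc6 (ENSMUSG00000058571; chromosome 14, 116925315 to 117976544, plus strand, 10 exons), the glypican needed for long bone growth in people, had 4.22, 2.37 and 1.63 FPKM on cKO polysomes, against 7.48, 5.46 and 6.59 FPKM in cKO input. It had 1.64, 1.90 and 2.40 FPKM on cHet polysomes, against 5.0, 4.12 and 5.60 FPKM in cHet input. All polysome values were below all input values of the same genotype. Gpc6 fell by 1.31 in cKO (SE 0.28, limma adjusted p = 0.00501) and by 1.27 in cHet (SE 0.28, limma adjusted p = 0.00272). Gpc1 (ENSMUSG00000034220; chromosome 1, 92831645 to 92860779, plus strand, 9 exons), a glypican best known from brain and muscle, had overlapping fractions in both genotypes. It had 64.0, 47.7 and 47.0 FPKM on cKO polysomes against 52.7, 48.7 and 76.1 in cKO input, and 35.1, 34.9 and 44.6 on cHet polysomes against 40.5, 43.3 and 43.9 in cHet input. Its log2 differences were −0.15 in cKO (95% interval −0.55 to 0.26) and −0.17 in cHet (−0.57 to 0.24). Under quantile normalization the cHet difference was −0.45 and passed (limma adjusted p = 0.0376).

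Among syndecans, Sdc1 (ENSMUSG00000020592; chromosome 12, 8771323 to 8793715, plus strand, 5 exons) had 133, 59.8 and 62.9 FPKM on cKO polysomes, against 110, 96.4 and 152 FPKM in cKO input. It had 35.6, 33.4 and 50.1 FPKM on cHet polysomes, against 77.7, 84.7 and 96.2 FPKM in cHet input. The fractions overlapped in cKO through polysome replicate 1 and did not overlap in cHet. Sdc1 fell by 1.14 on cHet polysomes (SE 0.29, limma adjusted p = 0.00574), and its cKO difference of −0.56 did not pass (SE 0.29, limma adjusted p = 0.149).

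Sdc4 (ENSMUSG00000017009; chromosome 2, 164424247 to 164443887, minus strand, 5 exons), the syndecan of focal adhesions, had 38.6, 23.8 and 36 FPKM on cKO polysomes, against 24.7, 19.9 and 27.7 FPKM in cKO input. It had 27.2, 25.2 and 28 FPKM on cHet polysomes, against 16.5, 17.3 and 16.4 FPKM in cHet input. All cHet polysome values were above all cHet input values, and in cKO the fractions overlapped. Sdc4 rose by 0.68 on cHet polysomes (SE 0.18, limma adjusted p = 0.00798), and its cKO difference of 0.43 did not pass (SE 0.18, limma adjusted p = 0.0896) but passed with the lysate as a replicate block (limma adjusted p = 0.0349).

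Sdc2 (ENSMUSG00000022261; chromosome 15, 32920723 to 33034935, plus strand, 5 exons), a syndecan of mesenchymal cells, and Sdc3 (ENSMUSG00000025743; chromosome 4, 130792537 to 130826319, plus strand, 5 exons), a syndecan of nerve and cartilage, had mean ratios near 1. Sdc2 had 30.1 to 40.3 FPKM on cKO polysomes against 25 to 39.0 in cKO input, and 35.7 to 40.2 on cHet polysomes against 34.5 to 36.7 in cHet input. Sdc3 had 38.7 to 55.5 FPKM on cKO polysomes against 38.1 to 61.0 in cKO input, and 28 to 45.4 on cHet polysomes against 33.0 to 36.6 in cHet input. Their fractions overlapped in each genotype. For Sdc2 the log2 differences were 0.12 in cKO (95% interval −0.24 to 0.49) and 0.06 in cHet (−0.31 to 0.43), and for Sdc3 they were −0.05 in cKO (−0.51 to 0.42) and 0.00 in cHet (−0.46 to 0.47).

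In all, 3 of 8 tested members fell and 0 rose on cKO polysomes, where 15.6% of 13610 genes fell and 16.9% rose. On cHet polysomes 4 fell and 1 rose, where 25.9% of genes fell and 27.3% rose. The median log2 difference of the 8 members was −0.36 in cKO and −0.65 in cHet, beside 0.06 in cKO and 0.02 in cHet over all tested genes. Without cKO input replicate 3 and cKO polysome replicate 1, 4 members fell in cKO, with log2 differences of −1.85 for Gpc3, −1.27 for Gpc4, −1.65 for Gpc6 and −0.75 for Sdc1 (limma adjusted p from 1.35e-05 to 0.00484), where 30% of 13472 genes fell. The Gpc3 and Gpc4 calls in cKO depended on single libraries: without cKO polysome replicate 3 they were lost (limma adjusted p = 0.0817 and 0.133), and without cKO polysome replicate 2 as well (limma adjusted p = 0.0713 and 0.0740). Gpc4 was also lost without cKO input replicate 1 (limma adjusted p = 0.0570) or 2 (0.0659), while in cHet the 5 calls held whichever library was left out.

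**Figure D3:**
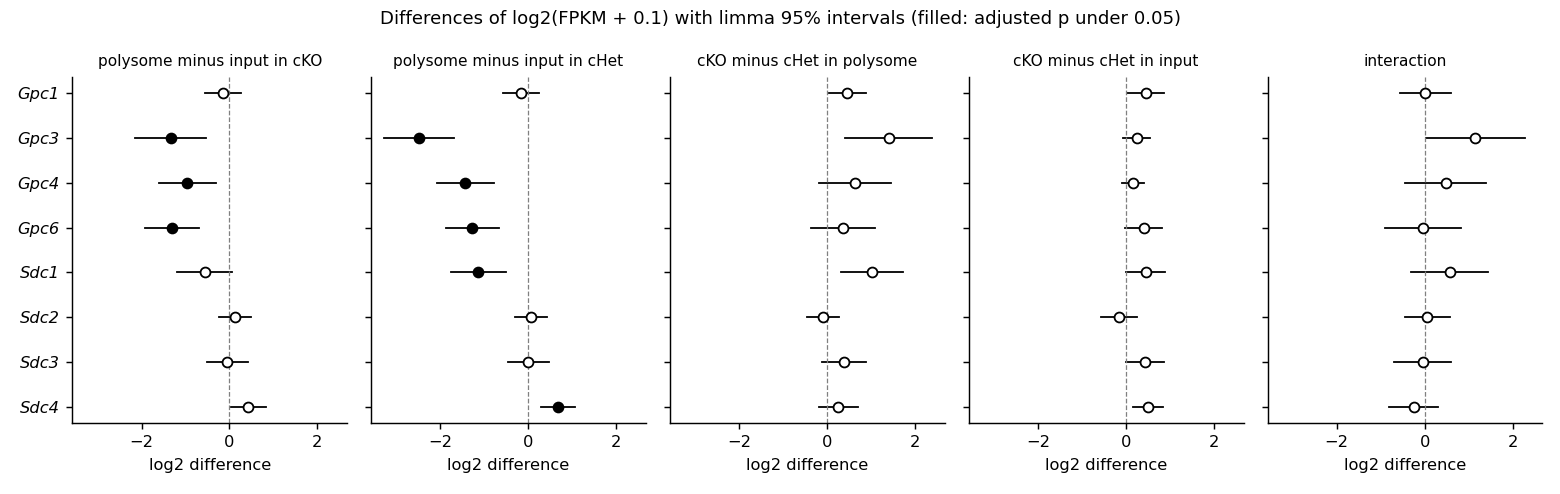
Log2 differences of FPKM + 0.1 with limma 95% intervals for the 8 tested members in the 5 comparisons, on 1 shared scale, filled where the adjusted p over all tested genes is under 0.05. Filled points are found only in the 2 fraction comparisons, with Gpc3 at −1.34 in cKO and −2.49 in cHet.

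Ratios were also taken within lysates. Gpc3 had the lowest polysome to input ratio of the 8 members in all 3 cHet lysates (0.171, 0.191 and 0.172) and in cKO lysates 2 and 3 (0.290 and 0.240). In cKO lysate 1 its ratio was 0.888, and Gpc6 was lowest there at 0.565. Sdc4 had the highest ratio in every lysate except cKO lysate 3, with 1.56, 1.20 and 1.30 in cKO and 1.65, 1.46 and 1.71 in cHet. Sdc2 was highest in cKO lysate 3, at 1.44. In cKO lysate 1 the ratios of 6 of the 8 members were above those of the other 5 lysates. These were Gpc3, Gpc4 at 0.844 against at most 0.511, Sdc1 at 1.21 against at most 0.620, Gpc6 at 0.565 against at most 0.461, Gpc1 at 1.21 against at most 1.01 and Sdc3 at 1.26 against at most 1.24. This was not particular to the members, and the share of all genes was not counted. Summed epidermis markers had a ratio of 1.17 there against at most 0.729, cartilage 0.793 against at most 0.438 and muscle 1.13 against at most 0.754. Summed limb mesenchyme markers had their lowest ratio there, 1.06 against at least 1.57.

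Whether the fraction difference itself differed between genotypes was tested as an interaction over all 12 libraries. None of the 8 members passed, and 0% of the 13610 genes did by limma. At an unadjusted p under 0.05 there was 1 member, Gpc3, beside 4.69% of all genes, and voom weights called 0 members. For Gpc3 the interaction was 1.15 on the log2 scale (SE 0.52, 95% interval 0.02 to 2.28, limma adjusted p = 0.790). Without cKO polysome replicate 1 it was 0.55 (limma adjusted p = 0.985). The 95% intervals of the other 7 members included 0, among them Sdc1 from −0.31 to 1.45, Gpc4 from −0.44 to 1.40 and Sdc4 from −0.81 to 0.31.

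Genotypes were then compared within polysome RNA. Gpc3 averaged 146 ± 115 FPKM on cKO polysomes and 46.0 ± 4.35 on cHet polysomes, and Sdc1 averaged 85.3 ± 41.4 FPKM on cKO polysomes and 39.7 ± 9.08 on cHet polysomes (SD, n = 3 each). For both genes every cKO polysome library was above every cHet polysome library, and replicate 1 was the highest of the cKO libraries. The log2 differences were 1.40 for Gpc3 (SE 0.44, limma adjusted p = 0.149) and 1.02 for Sdc1 (SE 0.31, limma adjusted p = 0.144), and neither passed.

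Gpc1 was the third member whose polysome groups did not overlap, with 52.9 ± 9.59 FPKM in cKO and 38.2 ± 5.53 in cHet (log2 0.46, SE 0.18, limma adjusted p = 0.198). A separation with cKO higher was thus seen for 3 of 8 members, beside 17.9% of 12877 genes. The log2 differences of the other members were 0.64 for Gpc4, 0.36 for Gpc6, −0.09 for Sdc2, 0.39 for Sdc3 and 0.26 for Sdc4, with overlapping groups. By limma 0 members passed, as did 0% of all genes, and at an unadjusted p under 0.05 there were 3 members and 21.3% of all genes. Voom weights called 0 members.

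Leaving out cKO polysome replicate 1 changed this for Gpc3. With that library aside Gpc3 averaged 80.0 FPKM on cKO polysomes, from 77.2 and 82.8, and the difference from cHet was 0.80 on the log2 scale (SE 0.13, limma adjusted p = 0.0435). Gpc3 then passed as 1 of 160 genes, 1.26% of 12738 tested, and no other member did. Sdc1 had 59.8 and 62.9 FPKM on cKO polysomes in that fit and differed by 0.65 (limma adjusted p = 0.109). Leaving out any other single polysome library gave Gpc3 differences of 1.32 to 1.73 that did not pass. Summed markers of several cell types were also higher in cKO, and no marker was at 0 throughout a group. For the 12 markers of epidermis the summed level was 318 to 534 FPKM on cKO polysomes against 240 to 254 on cHet polysomes, and 436 to 493 in cKO input against 365 to 382 in cHet input. Single epidermal markers differed in direction: 10 of 12 were separated with cKO higher on polysomes and 5 in input, while Krt18 was lower in cKO input without overlap (log2 −0.31, limma adjusted p = 0.295, not passing). The 9 macrophage markers summed to 69.3 to 96.1 FPKM on cKO polysomes against 52.2 to 57.8 on cHet polysomes, and 54.8 to 78.4 in cKO input against 43.3 to 48.4 in cHet input. The 8 nerve and Schwann markers summed to 24.8 to 41.9 FPKM on cKO polysomes against 18.1 to 24.2 on cHet polysomes. Their sums overlapped in input. On cKO polysomes 7 of these markers were higher and 1, Mbp, was lower without overlap (log2 −0.23, limma adjusted p = 0.427, not passing). The 9 limb mesenchyme markers summed to 1085 to 1325 FPKM in cKO input against 787 to 956 in cHet input. Their sums overlapped on polysomes. In cKO input 8 of them were higher and 1, Prrx1, was lower with overlapping groups (log2 −0.09). The sums for cartilage, endothelium and muscle overlapped between genotypes in both fractions. Col9a2, Matn4 and Cnmd of cartilage were lower in cKO input without overlap (log2 −0.79, −0.76 and −0.75). None passed (limma adjusted p = 0.141, 0.190 and 0.220). Of 8 tested cartilage markers 6 were lower and 2 higher in cKO input, and 2 lower and 6 higher on cKO polysomes. Without cKO input replicate 3, 1 cartilage marker passed as lower, beside 0.6% of 12827 genes. Tek and Emcn of endothelium were also lower in cKO input without overlap, not passing. Of 8 tested endothelium markers 5 were lower and 3 higher in cKO input, and 1 lower and 7 higher on cKO polysomes. Their median log2 difference in input was −0.01, the same as over all tested genes. The share of all genes separated with cKO lower is not given here. The part of these cell types in the members' values was not tested, and in bulk tissue fewer cells of a type and less RNA per cell cannot be told apart.

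**Figure D4:**
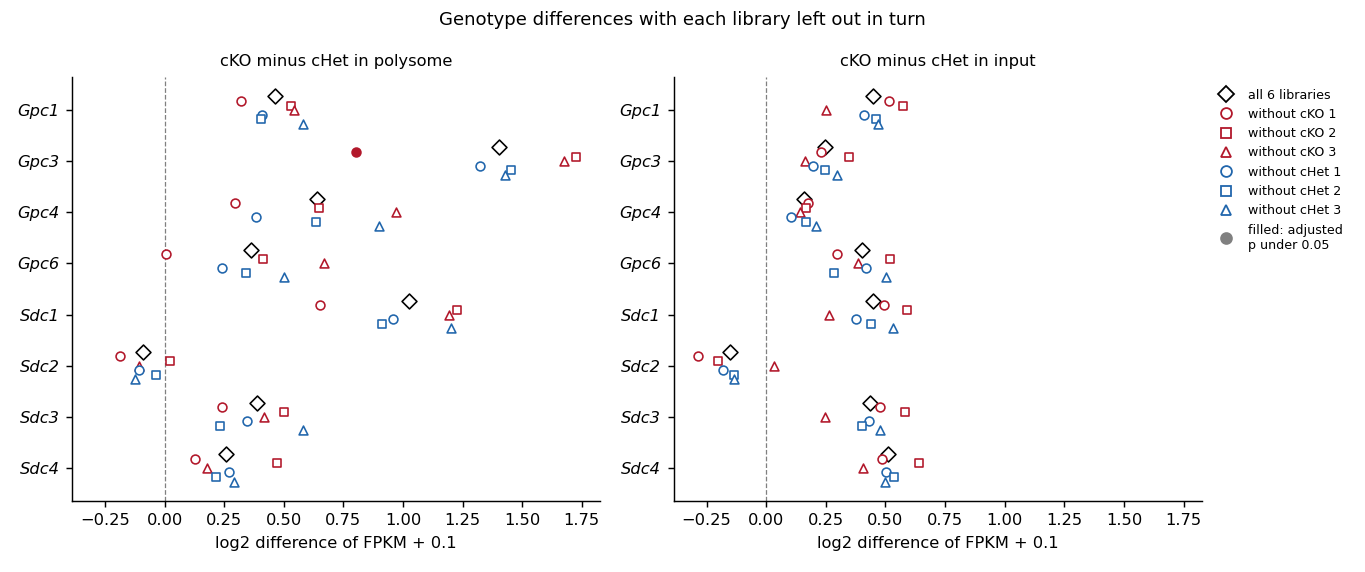
Log2 differences cKO minus cHet of the 8 tested members on polysomes (left) and in input (right), with all 6 libraries (diamonds) and with each library left out in turn, filled where the adjusted p is under 0.05. The 1 filled point is Gpc3 on polysomes without cKO replicate 1, at 0.80.

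In input RNA 7 of the 8 tested members were higher in cKO on average, and none passed. Sdc4 had 24.7, 19.9 and 27.7 FPKM in cKO input against 16.5, 17.3 and 16.4 FPKM in cHet input, all cKO values above all cHet values (log2 0.51, SE 0.14, limma adjusted p = 0.204). Sdc1 averaged 119 ± 28.7 FPKM in cKO input and 86.2 ± 9.37 in cHet input (log2 0.45, SE 0.18, limma adjusted p = 0.321). Gpc1 averaged 59.2 ± 14.8 FPKM in cKO input and 42.6 ± 1.82 in cHet input (log2 0.45, SE 0.18, limma adjusted p = 0.304). Along with Gpc4 and Sdc3, these genes did not overlap between genotypes, 5 of 8 members with cKO higher beside 16.9% of 12977 genes. At an unadjusted p under 0.05 there were 4 members, Gpc1, Sdc1, Sdc3 and Sdc4, beside 15% of all genes, while limma and voom weights each called 0 members and limma 0% of all genes.

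The highest cKO input values of Gpc1, Gpc3, Gpc4, Sdc1, Sdc3 and Sdc4 were those of replicate 3, the library that stood apart, and the lowest of Sdc2 was too. Sdc3 had 44.0, 38.1 and 61.0 FPKM in cKO input against 34.3, 33.0 and 36.6 in cHet input (log2 0.44, SE 0.18, limma adjusted p = 0.322). Sdc2 had 39.0, 34.7 and 25 FPKM in cKO input against 34.5, 36.7 and 36.7 in cHet input, a log2 difference of −0.15 that was 0.03 without replicate 3. Without that library the median of the 8 members was 0.25, beside 0.42 with it, and none passed among 12827 genes of which 2.54% did. The log2 differences were then 0.25 for Gpc1, 0.26 for Sdc1, 0.24 for Sdc3 and 0.40 for Sdc4. With it they were 0.45, 0.45, 0.44 and 0.51. Gpc3 differed by 0.25 in input (95% interval −0.06 to 0.56), Gpc6 by 0.40 (−0.01 to 0.81) and Gpc4 by 0.16 (−0.09 to 0.41).

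The 2 genes under 1 FPKM rest on few reads. Gpc5 averaged 0.118 ± 0.0258 FPKM in cKO input and 0.178 ± 0.0168 in cHet input, and with no filter on low values the difference was −0.35 (limma adjusted p = 0.627). Gpc2 averaged 0.573 ± 0.240 FPKM in cKO input and 0.464 ± 0.0556 in cHet input (log2 0.20, limma adjusted p = 0.799). Genes that overlap a member on either strand held at most 24 reads in a library, beside up to 21757 for Gpc3.

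The genes that build, modify and release heparan sulfate, and the proteins that bind syndecan tails, were counted from 5 lists. In cHet, 6 of 7 other heparan sulfate proteoglycans fell on polysomes and 1 rose, and in cKO 5 fell and 1 rose. Over all tested genes 25.9% fell and 27.3% rose in cHet, and 15.6% fell and 16.9% rose in cKO, and the counts of each list are to be read beside these shares. Agrn (agrin) averaged 13.7 ± 6.04 FPKM on cKO polysomes against 35.8 ± 8.39 in cKO input, and 6.97 ± 0.697 on cHet polysomes against 24.4 ± 2.07 in cHet input. Col18a1, a basement membrane collagen with heparan sulfate chains, fell by 1.61 in cKO and by 2.12 in cHet on the log2 scale (limma adjusted p = 0.00297 and 2.83e-04). Srgn (serglycin, the granule proteoglycan of blood cells) rose by 1.25 in cKO and by 0.79 in cHet (limma adjusted p = 9.58e-04 and 0.00409).

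Of 10 tested genes for shedding and release, 4 fell and 0 rose on cKO polysomes and 5 fell and 0 rose on cHet polysomes. Among them Mmp14, a membrane protease that sheds syndecans, averaged 28.8 ± 12.6 FPKM on cKO polysomes against 43.7 ± 8.36 in cKO input and 15.3 ± 0.369 on cHet polysomes against 33.6 ± 2.01 in cHet input. Of 12 tested chain synthesis genes, 2 rose and 1 fell in cKO and 3 rose and 3 fell in cHet. Ext1, a subunit of the chain polymerase, rose by 0.42 in cKO and by 0.58 in cHet (limma adjusted p = 0.0219 and 0.00232). Xylt1, which starts a chain on the core protein, fell by 0.83 in cKO and by 0.86 in cHet (limma adjusted p = 0.00986 and 0.00415).

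Of 17 tested chain modification genes, 1 rose and 2 fell in cKO and 9 rose and 5 fell in cHet. Hs3st1, for a 3-O-sulfotransferase, rose by 0.57 in cKO and 0.96 in cHet, while the sulfatase genes Sulf1 and Sulf2, which trim sulfate from finished chains, fell by 0.68 and 0.83 in cKO and by 1.11 and 1.18 in cHet (limma adjusted p from 2.92e-04 to 0.0208). Of 8 tested syndecan tail partners, 1 rose and 2 fell in cKO and 2 rose and 5 fell in cHet. Gipc1, for an adaptor that binds syndecan tails, averaged 160 ± 21.6 FPKM on cKO polysomes against 92.9 ± 22.4 in cKO input and 179 ± 14.3 on cHet polysomes against 83.9 ± 1.67 in cHet input. Without cKO input replicate 3 and cKO polysome replicate 1, larger numbers of each list passed in cKO, where 29.5% of all tested genes rose and 30% fell. In that fit 4 chain synthesis genes rose and 2 fell, 7 modification genes rose and 4 fell, 1 other proteoglycan gene rose and 6 fell, 0 shedding genes rose and 6 fell, and 2 tail partner genes rose and 5 fell.

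**Figure D5:**
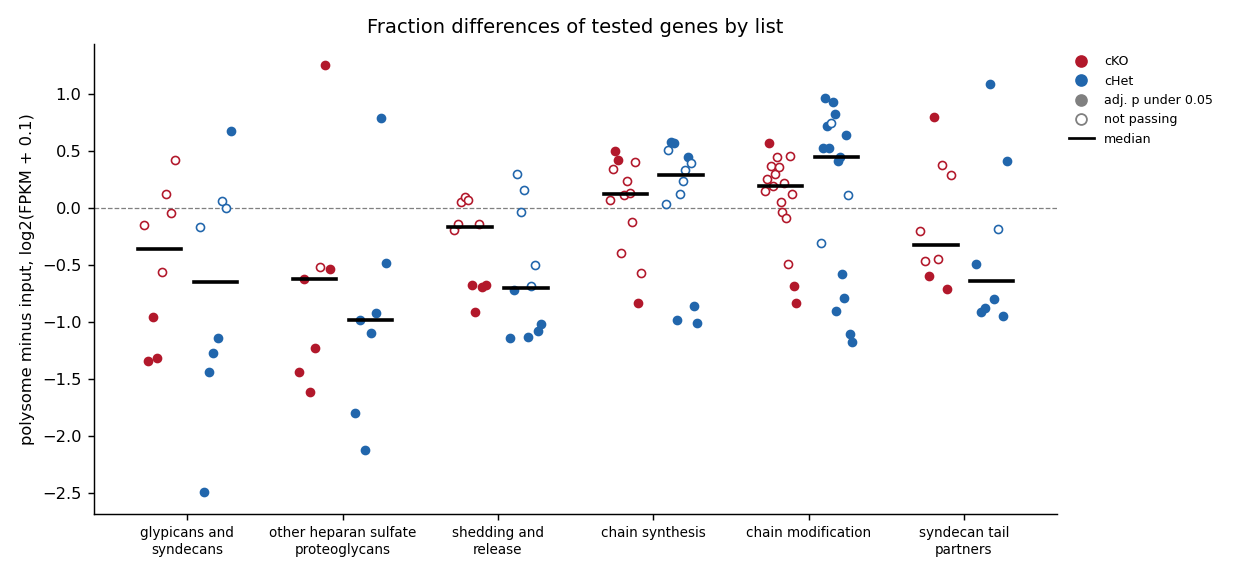
Log2 differences polysome minus input for each tested gene of 6 lists, cKO left of cHet, filled where the adjusted p over all genes is under 0.05, with black bars at list medians. The 8 glypicans and syndecans have medians of −0.36 in cKO and −0.65 in cHet, and the 17 chain modification genes have 0.20 in cKO and 0.45 in cHet.

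Between genotypes, 0 genes of these 5 lists passed in polysome or input RNA by limma with all libraries, beside 0% of all genes. At an unadjusted p under 0.05 there were, on polysomes, 3 of 11 chain synthesis, 8 of 17 modification, 2 of 6 other proteoglycan, 5 of 9 shedding and 0 of 8 tail partner genes, beside 21.3% of all genes. In input there were 3 of 11, 4 of 16, 4 of 7, 3 of 10 and 1 of 8 in the same order of lists, beside 15% of all genes. The smallest p of each list belonged to genes named here as not passing. Papss2, which makes the sulfate donor, averaged 3.68 ± 1.27 FPKM in cKO input and 9.51 ± 1.60 in cHet input (log2 −1.39, SE 0.27, limma adjusted p = 0.141), and 2.57 ± 0.820 on cKO and 5.48 ± 1.10 on cHet polysomes (log2 −1.09, limma adjusted p = 0.0896). Pxylp1, for the phosphatase that acts on the xylose of the chain linker, averaged 8.89 ± 2.30 FPKM in cKO input and 3.85 ± 0.209 in cHet input (log2 1.15, SE 0.21, limma adjusted p = 0.141). Both passed in input without cKO input replicate 3, Papss2 at −1.12 and Pxylp1 at 1.00 (limma adjusted p = 0.0437 and 0.0454), and neither passed on polysomes without cKO polysome replicate 1 (limma adjusted p = 0.0812 and 0.0556). Notum, for the secreted enzyme first described as a cleaver of glypican anchors, averaged 3.51 ± 0.818 FPKM on cKO and 1.58 ± 0.0618 on cHet polysomes (log2 1.07, SE 0.20, limma adjusted p = 0.0845). Agrn differed by 0.53 in input and 0.89 on polysomes (limma adjusted p = 0.256 and 0.140). Of the tail partners, Cttn had the smallest p in input (log2 −0.42, limma adjusted p = 0.186) and Ezr on polysomes (log2 0.32, limma adjusted p = 0.303).

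Profiles over all 12 libraries were also compared with those of 11889 other tested protein-coding genes, by the root mean square distance between log2 values centred on each gene's mean. Nearest to Gpc3 were Col18a1 at 0.21, Tmem132a at 0.22 and Os9 at 0.25. Nearest to Sdc1 were Serpinf1 at 0.10, Qsox1 at 0.11 and Slc27a3 at 0.12. Among the nearest to Gpc1 were Tbc1d10b at 0.07 and Slc15a4 at 0.08. These distances include the difference between fractions and the libraries that stood apart, and they describe likeness only.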

How the data were processed

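RNA was prepared from cytoplasmic lysates (input) and from their sucrose gradient polysome fractions, per the series' design text. The authors deposited 1 table of FPKM values per gene with gene models and lengths in bases. Reads were handled with HISAT2 2.0.5 and featureCounts 1.5.0-p3 on mm10, per the submitters' processing notes; strandedness and RNA selection are not given in the sources used here. FPKM × length gave whole reads for 100% of values (tolerance 0.01). Libraries held 10349912 to 30068823 assigned reads, so 1 read in 1 kb is worth 0.0320 to 0.0930 FPKM. Tests used limma 3.58.1 (trend, two-sided, Benjamini-Hochberg over all tested genes, threshold 0.05) on log2(FPKM + 0.1), which understates changes of low genes, for genes at 1 FPKM or more in at least 3 of the fitted libraries. Genotypes were compared over 6 libraries; fractions and the interaction over 12 with 4 group means. An exact permutation test of 3 against 3 cannot go below p = 0.1, so none is given. The test script was tested on simulated data.

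The labels call the replicates biological. Input and polysome libraries of 1 genotype and number come from the same lysate by the study's design, and their deviations from group means correlated at 0.0525 to 0.249 across genes. The lysate as a replicate block was an alternative, with other pseudocounts, filters, scalings, voom weights and left-out libraries. The 10 members and the gene lists were chosen with earlier results of these data known. Genes of the lists could be named if they were among the 3 lowest p-values that passed in a comparison, or, in a list with no pass, if theirs was the lowest. Start codons and GGACT matches came from GENCODE M21 transcripts, 1 per gene. The gene starts and ends of that release equal those of all 10 members in the deposited table. A gene with a profile like that of Gpc1 is not reported here.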

Additional observations from a re-analysis of the deposited data

How the results depend on the processing

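Of the members' values under the alternatives, 736 kept their direction and their side of the threshold, 31 changed sign, 9 came to pass and 7 no longer passed. The counts of members past the threshold stayed within 1.5 times except where single libraries were left out. Across those, 0 to 1 member passed between genotypes on polysomes and 1 to 4 between fractions in cKO. With the lysate as a replicate block 4 members passed in cKO and 5 in cHet. With the replicate number as a replicate block 0 passed between genotypes in either fraction. Same-numbered libraries of different genotypes deviated with correlations of −0.28 to 0.165. Libraries of the same lysate reached only 0.0525 to 0.249, so these values cannot decide whether the numbers pair libraries across genotypes. Signs turned only for differences near 0. Under quantile normalization the fraction difference of Sdc2 was −0.058 in cKO and −0.20 in cHet, and that of Sdc3 −0.24 in cHet. Without cKO input replicate 3 and cKO polysome replicate 1, Sdc2 was −0.16 in cKO and its interaction −0.22, and voom weights gave Gpc6 an interaction of 0.0059. With single libraries left out, Sdc2 between genotypes ran from −0.29 to 0.033 in input and −0.19 to 0.025 on polysomes. Between fractions in cKO, Gpc1 ran from −0.29 to 0.047, Sdc2 from −0.061 to 0.26 and Sdc3 from −0.19 to 0.15, and in cHet Sdc3 from −0.19 to 0.16. Interactions ran from −0.13 to 0.21 for Gpc1, −0.40 to 0.27 for Gpc6, −0.12 to 0.20 for Sdc2 and −0.20 to 0.15 for Sdc3. In cKO, Gpc4 between fractions was not past the threshold with no filter on low values (limma adjusted p = 0.0757), Sdc4 was with voom weights (0.0496), without cKO input replicate 3 (0.0393) and without cKO polysome replicate 2 (0.0163), and Sdc1 was under quantile normalization (0.0414). In cHet, Gpc1 came to pass under quantile normalization (−0.45, limma adjusted p = 0.0376), which made 6 members there in place of 5. The cause was not tested. Depth limits Gpc2 and Gpc5, with at most 63 and 26 reads.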
